A study of Mus musculus with 8 samples.

Results

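The wild-type (WT) comparison at 60 min set palm skin injected with PACAP against palm skin injected with vehicle, and was held by 2 of the 8 arrays of the series, taken by their titles. C57BL/6J mice aged 9 to 10 weeks were anaesthetised and received 5 µL of saline containing 0.1% BSA into the footpad of the forepaw, with PACAP at 1e-07 mol/L or without it. The other arrays held the same comparison in WT skin at 30 min and in skin of Adcyap1r1 -/- mice (PAC1R KO) at 30 and 60 min. Vehicle and PACAP RNA shared each array under different dyes. On array 1 PACAP carried Cy5 and on array 2 it carried Cy3, so that both arrays measured the same pair of RNA samples and counted as 1 replicate. The design text names 6 mice per genotype. It is not given in the sources used here which mice supplied an RNA sample or if several were pooled. The values therefore describe 1 PACAP sample and 1 vehicle sample and carry no error between animals. In whole skin, fewer cells of a type and less RNA per cell cannot be told apart.

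PACAP is a neuropeptide of the VIP family whose receptor PAC1R, encoded by Adcyap1r1, couples to G proteins and raises cAMP. The footpads of the mouse carry eccrine glands, and the skin around them carries hair follicles. A growing follicle packs its hair shaft with hair keratins and with keratin-associated proteins (KAPs), small proteins rich in cysteine or in glycine and tyrosine that cross-link the keratin filaments, while the inner root sheath around the shaft has keratins of its own together with trichohyalin. Interferon gamma, made by T and NK cells, induces the chemokines Cxcl9 and Cxcl10 and several families of GTPases in most cells that receive it.

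The tissue label was checked against epidermal and eccrine markers. Of 29 genes of epidermal keratins and differentiation, 28 were well above background in both samples on both arrays. Their mean level, on a log2 scale of background-corrected intensity, was 13.09 with vehicle and 13.27 with PACAP. The water channel Aqp5 of eccrine glands had a level of 14.36 with vehicle and 14.13 with PACAP. Adcyap1r1 had a level of 8.67 with vehicle and 8.76 with PACAP. Its probe read between 7.91 and 8.56 in the 4 KO samples and did not separate the genotypes clearly, and whether it lies in the deleted part of the gene is not given in the sources used here. On both arrays 44397 spots were read, and between 57.1% and 91.6% of the 43020 spots outside the controls were well above background, depending on dye and array. Precision is limited by there being 2 arrays.

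Between both arrays, the ratios turned to PACAP over vehicle correlated at r = -0.73 across all 39427 probes and at 0.18 across the 21676 probes well above background in both samples on both arrays. These correlations are across probes of 1 pair of RNA samples. Of 1038 probes past a 2.0-fold change with p below 0.01 on either array, 654 (63.0%) pointed the other way on the second array. A ratio that follows the dye changes sign between the arrays, so a probe was called up-regulated only at a mean of at least 2.0-fold, or down-regulated only at a mean of at most 0.5-fold, where both arrays also shared the direction and each had a p from Feature Extraction below 0.01. That p covers the error within an array.

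By this rule 230 of 39427 probes were up-regulated, or 0.583%, and 43 were down-regulated, or 0.109%. They carried 205 gene names with a probe up-regulated (0.692% of 29606) and 40 with a probe down-regulated (0.135%). The median change was 3.62-fold among the former and 0.315-fold among the latter. Hair genes and the Krtap loci held 129 of the 230 up-regulated probes (56.1%), and their flanks another 14. Interferon response genes held 13, genes of wound and barrier epidermis 11, and liver genes 0. Of the 43 down-regulated probes, 26 (60.5%) belonged to liver genes, 2 to red cells and platelets, and none to the other groups named. The probe just inside the upper threshold was that of Sprr2a3 at 2.01-fold, and just outside was Bhlha9 at 1.99-fold. At the lower threshold ENSMUST00000178292.1 was inside at 0.496-fold and a probe of Serpina1e outside at 0.509-fold.

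**Figure D1:**
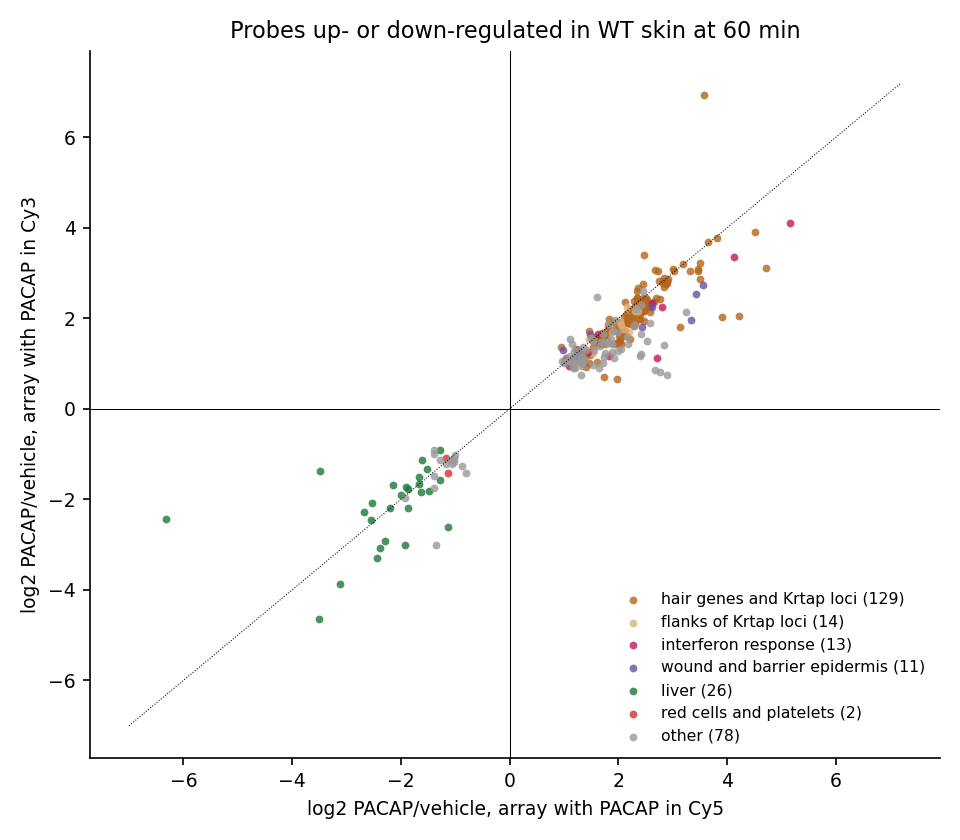
Each point is a probe called up- or down-regulated in WT skin at 60 min. The x axis is its log2 ratio of PACAP over vehicle on the array with PACAP in Cy5, the y axis that on the array with PACAP in Cy3, the dotted line marks equal values, and colours give the gene group with its number of probes. The 129 probes of hair genes and Krtap loci lie at the upper right and the 26 liver probes at the lower left.

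The promoters of hair, interferon and liver genes are shown first, with the short motifs that were counted near their start sites. Sequences are from RefSeq on GRCm38.p6, on the strand of the gene, and end at the base before the start site. A promoter was found for 18043 of the 29606 gene names. In the interferon genes, capitals mark the interferon-stimulated response element, searched on both strands as GAAA, any 2 bases and GAAA, and the gamma-activated site, searched as TTCNNNGAA. Cxcl9 at chr5:92328080-92328329 on the minus strand held neither in this window, Cxcl10 at chr5:92348890-92349139 on the minus strand and Gbp2 at chr3:142620413-142620662 on the plus strand each held the response element, and Igtp at chr11:58199306-58199555 on the plus strand held both.
Cxcl9: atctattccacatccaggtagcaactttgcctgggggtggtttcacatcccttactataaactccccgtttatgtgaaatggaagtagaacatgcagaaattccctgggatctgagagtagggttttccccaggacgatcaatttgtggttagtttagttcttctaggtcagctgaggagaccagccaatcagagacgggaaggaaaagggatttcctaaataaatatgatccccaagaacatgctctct
Cxcl10: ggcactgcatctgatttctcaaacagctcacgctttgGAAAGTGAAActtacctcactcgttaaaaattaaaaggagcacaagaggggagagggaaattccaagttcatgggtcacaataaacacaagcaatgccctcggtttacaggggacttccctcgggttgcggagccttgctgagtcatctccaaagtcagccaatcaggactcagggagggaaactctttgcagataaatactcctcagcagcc
Igtp: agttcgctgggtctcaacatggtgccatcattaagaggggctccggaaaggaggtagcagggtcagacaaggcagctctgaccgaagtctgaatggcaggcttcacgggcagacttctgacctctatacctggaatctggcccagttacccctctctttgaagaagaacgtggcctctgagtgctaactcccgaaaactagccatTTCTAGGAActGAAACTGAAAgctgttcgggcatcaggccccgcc
Gbp2: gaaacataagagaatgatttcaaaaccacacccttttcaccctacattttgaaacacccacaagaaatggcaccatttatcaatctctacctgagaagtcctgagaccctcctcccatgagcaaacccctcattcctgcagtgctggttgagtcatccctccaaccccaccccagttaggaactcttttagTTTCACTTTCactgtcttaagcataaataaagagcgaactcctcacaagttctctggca

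In the hair genes, capitals mark TATAAA, the core of a TATA box, in the last 60 bases before the start site. Krtap19-9b lies at chr16:88932265-88932324, 1110025L11Rik at chr16:89064003-89064062, Krtap16-1 at chr11:99986594-99986653 and Gm10228 at chr16:89041473-89041532, all on the minus strand.
Krtap19-9b: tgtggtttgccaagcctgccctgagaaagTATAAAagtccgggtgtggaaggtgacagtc
1110025L11Rik: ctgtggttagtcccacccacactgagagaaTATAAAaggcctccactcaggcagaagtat
Krtap16-1: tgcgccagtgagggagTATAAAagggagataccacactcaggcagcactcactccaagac
Gm10228: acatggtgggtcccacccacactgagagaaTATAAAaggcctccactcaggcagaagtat

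For the liver genes, capitals mark GTTAAT, a half-site of the liver factor HNF1, in the last 100 bases. Alb lies at chr5:90460770-90460869 on the plus strand, Gc at chr5:89457899-89457998 on the minus strand and Fabp1 at chr6:71199779-71199878 on the plus strand, where this window held no match.
Alb: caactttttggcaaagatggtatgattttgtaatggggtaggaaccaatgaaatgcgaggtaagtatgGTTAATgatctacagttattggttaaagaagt
Gc: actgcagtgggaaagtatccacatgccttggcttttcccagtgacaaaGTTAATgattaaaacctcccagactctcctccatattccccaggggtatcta
Fabp1: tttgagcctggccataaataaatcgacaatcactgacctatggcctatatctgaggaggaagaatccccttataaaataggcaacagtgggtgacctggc

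Counted over 250 bases before the start site on both strands, TATAAA was held by 59 of 75 hair-list genes with a promoter (78.7%), against 14.3% of all 27025 gene symbols with one. The interferon-stimulated response element was held by 9 of 16 interferon gamma response genes, against 3.46% of all symbols, and the gamma-activated site by 7 of 16, against 8.13%. Among the 8 up-regulated ones with a promoter these were 6 and 2, so that 5 of the 7 genes with a gamma-activated site were not called. GTTAAT was held by 21 of 78 liver-list genes (26.9%), against 7.49%. The cAMP response element, searched as TGACGTCA, was held by 0 of 16 interferon genes and 0 of 75 hair genes, against 1.77%. A match describes these letters in this window and no bound factor.

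Hair genes and the Krtap loci held 107 of the 205 gene names with a probe up-regulated, a count that takes in hair shaft, inner root sheath and unlisted genes of the loci. All 53 measured KAP genes had mean ratios above 1, 44 of them were up-regulated and none was down-regulated. Their median log2 ratio was 2.10, against -0.03 over all 29606 gene names. Krtap19-9b, a KAP rich in glycine and tyrosine, gave an 18.6-fold ratio, with 22.9-fold on array 1 and 15.1-fold on array 2. Krtap6-1 gave 12.8-fold (12.6 and 12.9) and Krtap16-1 9.67-fold (11.04 and 8.48). For these 3 genes both arrays lay far above the threshold, and with normexp background correction, an alternative that shrinks the ratios of dim spots, they gave 8.60-fold, 7.91-fold and 4.08-fold. Krtap19-3 at 9.09-fold (5.41-fold with normexp), Krtap1-5 at 8.20-fold and, by their dimmer probes, 1110025L11Rik at 13.9-fold (6.25-fold) and Gm10228 at 9.08-fold (4.37-fold) were also among the 15 largest rises. The brighter probes of the latter 2 genes gave 6.82-fold and 7.09-fold. Also among the 15 were a pair of probes without a gene name at Krtap loci, A_55_P2007103 on chr16 at 15.1-fold (3.37-fold with normexp) and A_55_P2092551 on chr11 at 9.16-fold (6.54-fold). The lowest KAP genes were Krtap10-4 at 1.01-fold and Krtap10-10 at 1.21-fold, neither of which passed the rule. Krtap19-1 was not well above background on either array of the vehicle sample and was at least 1.97-fold higher with PACAP, where its probe was well above background on both arrays.

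Krtap6-5 showed how closely the spots of 1 probe agreed, because its probe was printed on 10 spots of each array. The ratio was 7.17-fold over spots that ranged from 6.85 to 7.72 on array 1, and 7.44-fold over spots from 7.10 to 7.95 on array 2. The spread over spots was therefore small beside the change. It is an error of measurement within 1 pair of RNA samples.

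The keratins of the hair shaft followed the KAPs. Of 15 measured genes, 13 had a probe up-regulated and none was down-regulated, with a median log2 ratio of 2.02, or 1.23 with normexp. Krt33a, a type I keratin of the hair cortex, gave 11.04-fold on array 1 and 8.28-fold on array 2, a mean of 9.56-fold. Krt33b gave 8.04-fold and 8.51-fold, with a mean of 8.27-fold. The cortex keratins Krt31 and Krt35 were up-regulated 2.52-fold and 3.79-fold, and the cuticle keratins Krt32 and Krt82 2.98-fold and 4.06-fold. Krt84 at 1.74-fold and Krt39 at 0.954-fold did not pass. The probes of Krt85 disagreed, since its brightest probe gave 1.08-fold and another 5.59-fold.

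Most genes of the inner root sheath and companion layer were up-regulated as well. Of 12 genes of the inner root sheath and companion layer, 9 were up-regulated, and the median log2 ratio was 2.29, or 1.37 with normexp. Krt28, a keratin of the sheath, gave 4.75-fold by its brightest probe and 8.79-fold by a dim one, which became 2.03-fold with normexp. Krt71 gave 5.50-fold on array 1 and 6.74-fold on array 2, and Krt25 and Krt27 gave mean ratios of 5.28-fold each. Trichohyalin (Tchh), which forms the granules of the sheath, was up-regulated 5.71-fold, and Padi3, an enzyme that converts its arginines to citrulline, 5.02-fold. The transglutaminase Tgm3, at 1.20-fold, and Krt72, at 1.04-fold, were not called. Of 10 other genes of the hair cortex and cuticle, 4 were up-regulated, among them Gprc5d at 3.17-fold and Psors1c2 at 2.24-fold. Lyg1, another of them, was not well above background on either vehicle array and was at least 1.31-fold higher with PACAP.

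Genes that act earlier in the follicle did not pass the rule. Of 15 follicle regulators, which include the transcription factors Hoxc13, Foxn1, Lef1 and Msx2, none was called, and their median log2 ratio was 0.02. None of 11 melanocyte genes and none of 22 cell cycle genes was called, with medians of 0.14 and 0.13. All 12 sebaceous gland genes had mean ratios above 1 and none was called, with a median of 0.61. Cidea gave 1.78-fold on array 1 and 1.70-fold on array 2, and the fatty acid elongase Elovl3 1.72-fold and 1.49-fold.

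**Figure D2:**
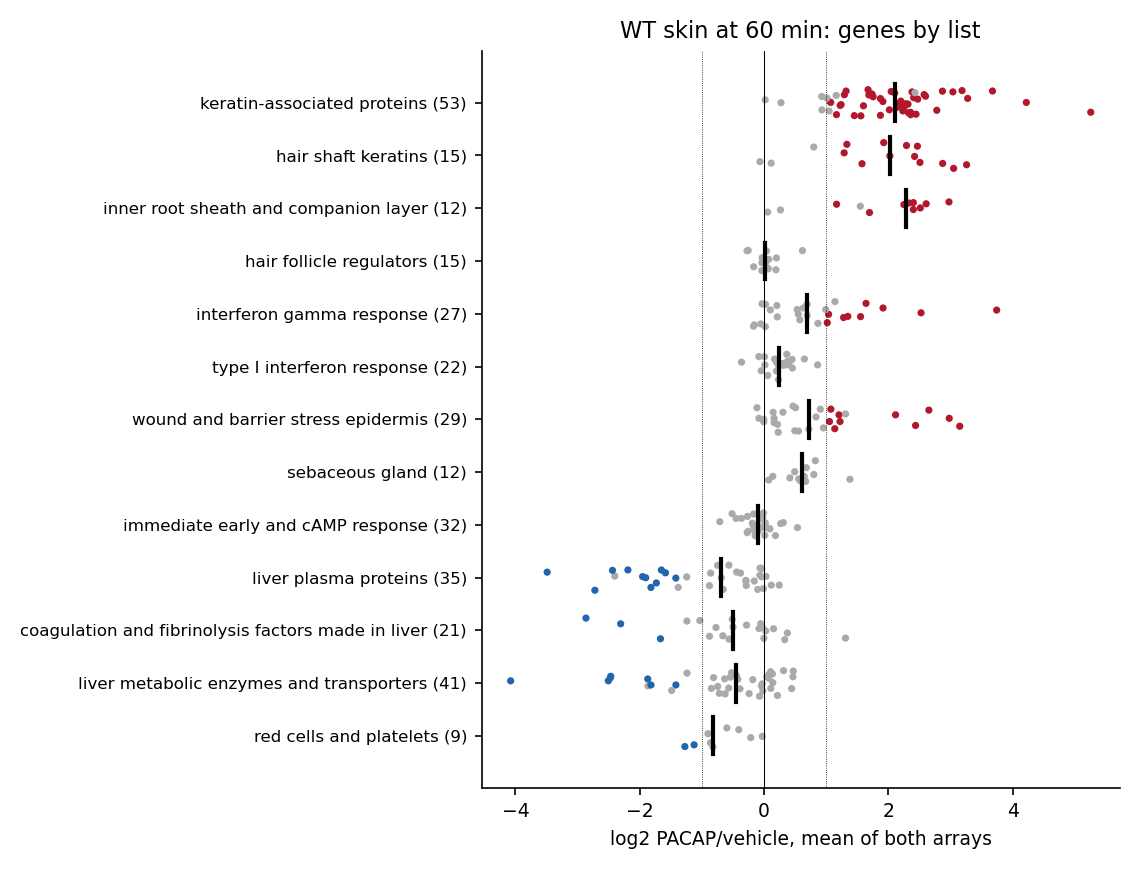
Each point is a gene by its brightest probe, placed by its log2 ratio of PACAP over vehicle averaged over both arrays. Red points were up-regulated and blue points down-regulated, grey points were not called, the black bars are list medians, the dotted lines mark 2.0-fold and 0.5-fold, and the number of measured genes follows each list's name. The KAP, hair keratin and inner root sheath medians of 2.10, 2.02 and 2.29 stand to the right, and the liver plasma protein median of -0.69 to the left.

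The probes at the clusters of KAP genes were then read by locus. KAP genes within 1 Mb of each other were joined into loci on mm9, the build of the files' coordinates, whatever their ratio. At chr16:88611735-89570882, 46 of 62 probes were up-regulated with a median log2 ratio of 2.07, and at chr11:99411448-99854715, 37 of 52 with a median of 1.71. At chr7:149360485-149490408, 11 of 15 probes were up-regulated (median 1.78), and at chr10:77183942-77299996, 4 of 11 (median 0.80). At chr1:83057928-83058202, which holds Krtap28-13 alone, both probes were up-regulated. Within 200 kb outside these loci another 14 probes were up-regulated, of 65 outside the hair, interferon, wound, liver and blood groups. On chr1 they were 7 transcripts named by Ensembl identifiers alone, the highest being ENSMUST00000222182.1 at 4.78-fold, and on chr7 the predicted genes Gm39115 (4.71-fold), Gm45618 (3.84-fold), Gm29735 (3.80-fold) and Gm45337 (2.60-fold).

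The ratio of hair genes also differed from 0 in the other comparisons, in both directions. Over the chr16 locus the median was -0.93 in WT skin at 30 min, 1.45 in KO skin at 30 min and -1.37 in KO skin at 60 min. In these, 27 of its 62 probes were down-regulated, 39 were up-regulated and 41 were down-regulated. The chr11 locus had medians of -0.17, 0.99 and -0.31 in the same order. For both of these loci the sign at 60 min in WT skin was that of KO skin at 30 min and the opposite of that in the other comparisons. The loci on chr1, chr7 and chr10 differed from them in WT skin at 30 min, where their medians of 0.57, 0.75 and 0.32 had the same sign as at 60 min.

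**Figure D3:**
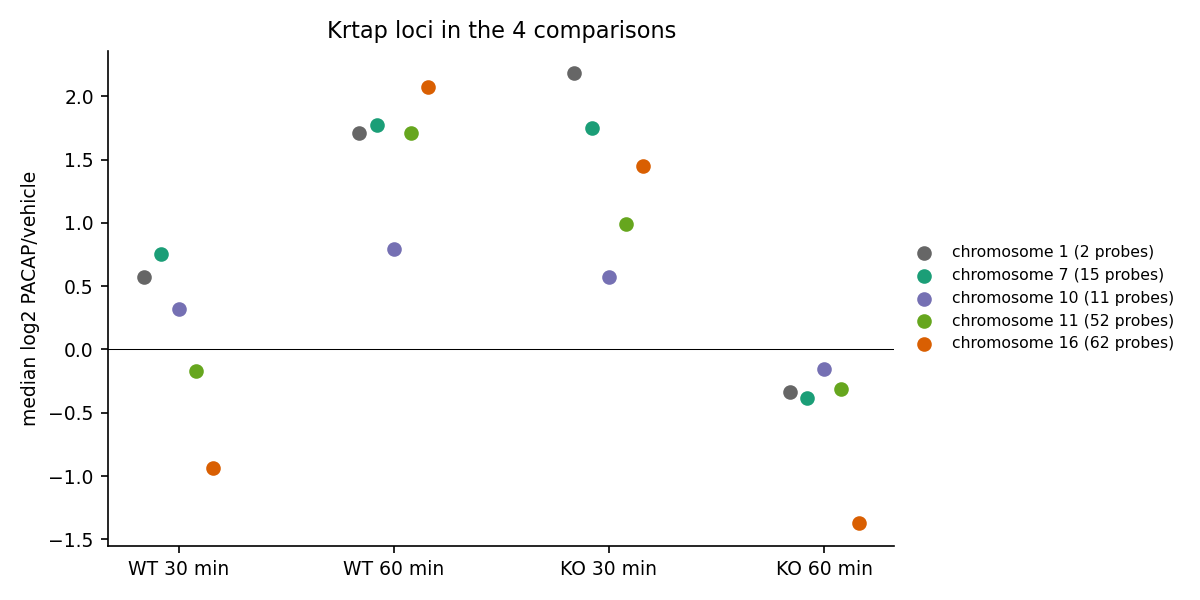
Points are the median log2 ratio of PACAP over vehicle over all probes of a Krtap locus, with colours for the chromosome. The comparisons stand along the x axis. In WT skin at 60 min all 5 loci lie above 0, the chr16 locus at 2.07, whereas in KO skin at 60 min all lie below 0, the chr16 locus at -1.37.

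The level in each RNA sample was set beside those of the other samples, and the mean of the KAP list lay within their range for both. The mean level of the KAP list was 8.45 with vehicle at 60 min and 9.99 with PACAP. The other 6 samples ran from 8.14 to 10.66 in skin that had received vehicle or PACAP. No KAP gene was highest of the 8 samples in the PACAP sample of WT skin at 60 min, and 10 of 53 were lowest in its vehicle sample (18.9%, against 9.71% of all gene names). For Krt33a the level was 8.33 with vehicle and 11.36 with PACAP. Krt36, a hair keratin up-regulated 5.69-fold, had a level of 7.77 with vehicle and 9.80 with PACAP, while in WT skin at 30 min the vehicle level was 10.92 and the PACAP level 8.06. The mean level of the hair shaft keratins was 8.32 with vehicle and 9.78 with PACAP at 60 min in WT skin, and ran from 8.10 to 10.19 among the 4 vehicle samples of the study.

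**Figure D4:**
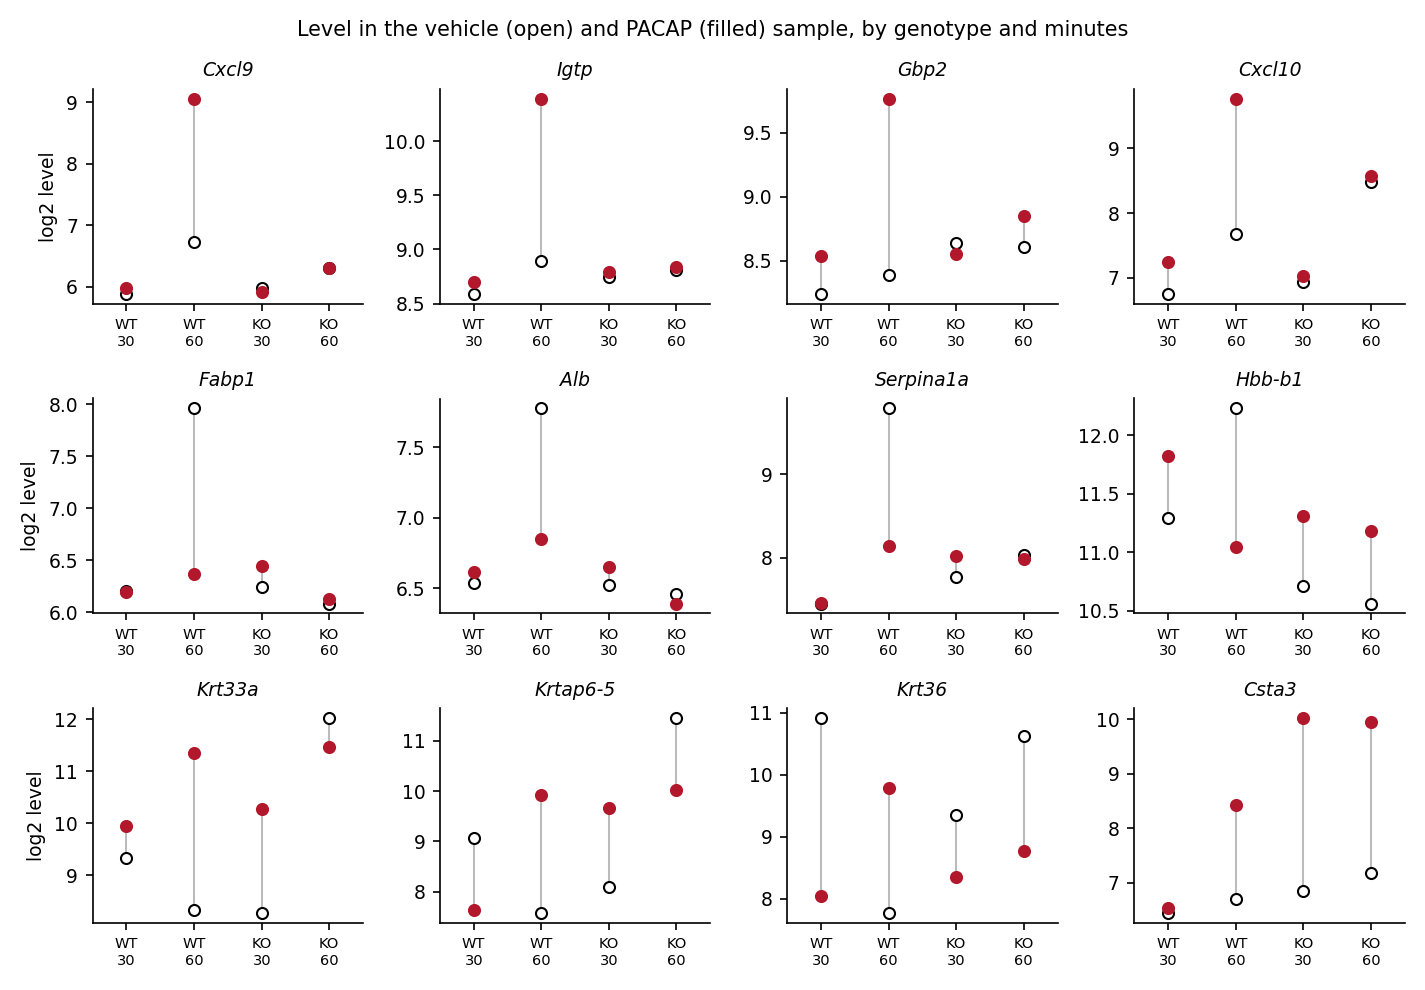
Each panel is 1 gene by its brightest probe, with the log2 level (background-corrected and normalized intensity) in the vehicle sample as an open point and in the PACAP sample as a filled point, for each genotype and time in minutes. The y axes differ and do not start at 0. In WT skin at 60 min, Cxcl9, Igtp, Gbp2 and Cxcl10 have the highest filled point of all samples, whereas Fabp1, Alb, Serpina1a and Hbb-b1 have the highest open point.

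Genes induced by interferon gamma formed the next group. Of 27 measured genes, 11 had a probe up-regulated, 9 of them by their brightest probe, and none was down-regulated. The median log2 ratio was 0.69 (0.42 with normexp), against -0.03 over all gene names. Of 22 genes of the type I interferon response none was called, with a median of 0.23. Cxcl9, a chemokine that draws T cells through the receptor Cxcr3, had the largest ratio of the probes that were well above background on at least 1 array of each sample, an order that did not hold with normexp. Its brightest probe gave 17.4-fold on array 1 and 10.3-fold on array 2, a mean of 13.4-fold, and its other probe 35.8-fold and 17.1-fold, a mean of 24.8-fold. With normexp these means became 5.05-fold and 3.19-fold, below the 8.60-fold of Krtap19-9b. The level of the brightest probe was 6.72 with vehicle and 9.05 with PACAP, and between 5.88 and 6.31 in the other 6 samples. Cxcl10, a chemokine of the same receptor, was up-regulated 5.75-fold (6.97 and 4.75).

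The immunity-related GTPases and guanylate-binding proteins act against pathogens inside cells. Of the list's members, all 4 of the former and 4 of 9 of the latter had a probe up-regulated, counts taken after the values were seen, while Gbp5, Gbp7, Gbp8, Gbp9 and Gbp10 were not called. Igtp was printed on 10 spots of each array and gave 3.09-fold on array 1, over 7 kept spots from 2.97 to 3.16, and 3.14-fold on array 2, over 9 from 3.02 to 3.32. Its level was 8.89 with vehicle and 10.39 with PACAP, above the 8.59 to 8.84 of the other 6 samples. Gbp2 was up-regulated 2.93-fold (3.18 and 2.70), Gbp3 2.43-fold (2.39 and 2.46) and Irgm2 2.02-fold (2.13 and 1.92). Gbp4 was dim, and its mean of 3.77-fold, from 6.56-fold on array 1 and 2.16-fold on array 2, became 1.31-fold with normexp. Cd274, which encodes the checkpoint ligand PD-L1, was up-regulated 2.05-fold (2.02 and 2.08). In 14 of the 27 genes (51.9%) the PACAP sample of WT skin at 60 min was the highest of all 8 samples, against 8.01% of all gene names.

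Among members of the list that did not pass, the transcription factor Irf1 gave 1.49-fold, Tap1, which carries peptides to class I molecules, 1.62-fold, the immunoproteasome subunits Psmb9 and Psmb8 1.55-fold and 1.45-fold, and the feedback inhibitor Socs1 1.01-fold. Cxcl11 gave 1.02-fold. Outside the list, and chosen after their values were seen, the GTPases Tgtp2 (3.49-fold) and Ifi47 (2.55-fold), the ubiquitin-like protein gene Ubd (6.44-fold, or 1.69-fold with normexp) and the class I gene H2-Q5 (2.26-fold) were also up-regulated. Of the 13 up-regulated probes of interferon response genes, 2 were also up-regulated in WT skin at 30 min, those of Cxcl10 (2.18-fold) and Gbp4 (2.46-fold). In KO skin 0 were, at either time. Of all 39427 probes, 100 were up-regulated in WT skin at 30 min, 237 in KO skin at 30 min and 56 in KO skin at 60 min. The count of 0 in KO skin is near these shares.

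Markers of the cells that make interferon gamma were given for the same samples. None of 16 T and NK cell genes was called, 10 of them had ratios above 1, and the median was 0.22. The mean level of that list was 7.18 with vehicle and 7.24 with PACAP, within the 7.02 to 7.32 of the other 6 samples. Ifng itself gave 2.80-fold on array 1 and 3.24-fold on array 2, near background, and was not called. Of 15 genes of macrophages and dendritic cells none was called, with a median of 0.12. The part of such cells in the interferon group was not tested. With normexp 4 of the 11 interferon gamma response genes still passed.

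Genes of wound and barrier stress in epidermis made up a smaller group. Of 29 genes 10 were up-regulated and none down-regulated, with a median log2 ratio of 0.72. With normexp 7 of the 10 passed, and the median was 0.50. The small proline-rich proteins, which are built into the cornified envelope, included the largest changes, with Sprr2f at 8.85-fold (11.7 and 6.68), Sprr2e at 6.28-fold (10.1 and 3.91) and Sprr2i at 5.41-fold (6.17 and 4.75). Csta3, a stefin A family protease inhibitor, was up-regulated 7.88-fold (10.7 and 5.79). These genes were dim with vehicle, and with normexp Sprr2f gave 1.82-fold, short of the threshold, Sprr2e 2.22-fold, Sprr2i 2.84-fold and Csta3 3.33-fold. The keratins of activated epidermis were much brighter, with Krt16 at 2.30-fold, Krt6b at 2.20-fold and Krt17 at 2.10-fold. Krt6a at 1.38-fold, Slpi at 1.23-fold and Sprr1b at 0.943-fold were not called. Neither were the stefin A genes Stfa1 (1.12-fold), Stfa2 (1.11-fold) and Stfa3 (0.997-fold), nor Sprr2h (0.996-fold) and Sprr2k (1.16-fold).

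The same genes were followed in the other comparisons. Of the 11 up-regulated probes of wound and barrier epidermis, which include that of Lce3a, all 11 were up-regulated in KO skin at 60 min as well, 9 in KO skin at 30 min and 0 in WT skin at 30 min. Csta3 gave 17.4-fold in KO skin at 30 min, 11.2-fold in KO skin at 60 min and 1.30-fold in WT skin at 30 min. The list's mean level was 9.43 with vehicle and 10.02 with PACAP at 60 min in WT skin, and reached 11.13 in KO skin given PACAP. Each genotype had a slide of its own, and the effects of genotype and slide cannot be told apart.

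Liver genes formed the largest down-regulated group. Of 35 measured genes for liver plasma proteins 13 had a probe down-regulated, of 41 liver enzymes and transporters 8, and of 21 coagulation factors 3, with median log2 ratios of -0.69, -0.44 and -0.50. With normexp these medians were -0.24, -0.07 and -0.08. None of these 97 genes was up-regulated. Fabp1, the fatty acid-binding protein of liver, had a ratio of 0.0592-fold, with 0.0876 on array 1 and 0.0401 on array 2. Gc, the plasma carrier of vitamin D, gave 0.0890-fold (0.115 and 0.0689), Serpinc1, which encodes antithrombin, 0.137-fold (0.184 and 0.102), and Alb, which encodes albumin, 0.318-fold (0.357 and 0.283). Slc27a5, an enzyme of bile acid conjugation, gave 0.181-fold, and Bhmt, an enzyme of methionine metabolism, 0.374-fold by its brightest probe and 0.164-fold by another. The transthyretin gene Ttr (0.151-fold), the fibrinogen chain gene Fgg (0.202-fold) and Ambp (0.219-fold) were among the lowest as well, with Ces3a, Cyp2d10 and Serpina3k between 0.176-fold and 0.184-fold. The apolipoprotein gene Apoa2 (0.245-fold, by a probe that is not its brightest) and Serpina1e (0.258-fold) completed the liver genes among the 15 lowest, which also held ENSMUST00000103410.2 (0.220-fold) and the probe A_55_P2046709 on chr12 (0.259-fold), both outside the lists. The antitrypsin genes were the brightest members. Serpina1a gave 0.267-fold (0.227 and 0.314) and Serpina1c 0.283-fold (0.266 and 0.301), and since the Serpina1 genes are near-identical copies their probes may share transcripts.

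The vehicle sample was the highest of the study for many liver genes. For Fabp1 the level was 7.96 with vehicle and 6.37 with PACAP, and between 6.08 and 6.44 in the other 6 samples. For Alb it was 7.77 and 6.85, with 6.39 to 6.65 elsewhere, and for Serpina1a it was 9.79 and 8.14, with 7.45 to 8.03 elsewhere. The vehicle sample of WT skin at 60 min was the highest of all 8 samples for 23 of 35 liver plasma protein genes (65.7%), 8 of 21 coagulation factors (38.1%) and 13 of 41 enzymes and transporters (31.7%), against 10.2% of all gene names. The mean level of the liver plasma protein list was 7.90 in this vehicle sample, 7.49 in the PACAP sample, and 7.33 to 7.57 in the other 6 samples. The liver plasma proteins were thus near the level of the other samples with PACAP and above it with vehicle. Several were dim with PACAP, and Cyp3a11, by a probe not well above background there, was at least 1.5-fold lower. With normexp correction 5 of the 13 plasma protein genes, 1 of the 8 enzymes and 0 of the 3 coagulation factors passed. With that correction Fabp1 gave 0.332-fold, Gc 0.481-fold, Serpinc1 0.600-fold, Alb 0.526-fold and Slc27a5 0.671-fold, while the bright Serpina1a and Serpina1c gave 0.318-fold and 0.340-fold. The ratios of Ttr, Fgg, Ambp, Ces3a, Cyp2d10 and Serpina3k lay between 0.574-fold and 0.723-fold, short of the threshold. Both Bhmt probes, at 0.775-fold and 0.662-fold, and ENSMUST00000103410.2, at 0.695-fold, did not pass either, whereas Apoa2 gave 0.416-fold.

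Blood genes were lower with PACAP in the same direction. All 9 genes of red cells and platelets had mean ratios below 1, with a median log2 ratio of -0.82 (-0.31 with normexp), and 2 were down-regulated. Hbb-b1, a beta globin, gave 0.457-fold and 0.374-fold on the arrays, with a level of 12.23 with vehicle and 11.05 with PACAP. The platelet chemokine Ppbp gave 0.442-fold and 0.474-fold. The alpha globin Hba-a1 at 0.535-fold and Alas2, the first enzyme of haem synthesis in red cells, at 0.565-fold did not pass. With normexp correction 1 of the 2 down-regulated genes passed. The vehicle sample was the highest of all 8 samples for 6 of the 9 genes. Lists of pancreas, kidney, intestine and lung, which hold markers of other organs, held 0 called genes, with medians of -0.12, -0.07, -0.28 and -0.03. In that order, 4 of 11, 1 of 9, 3 of 9 and 2 of 6 genes were well above background in both samples and arrays. Only 0.135% of all gene names had a probe down-regulated. Lists this short and dim therefore cannot show whether the change was particular to liver and blood. What the liver and blood genes of the vehicle sample came from was not tested.

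Of the down-regulated probes outside these lists, 3 were transcripts within 3.02 to 3.04 Mb on chr9 at 0.467-fold to 0.476-fold, and all 3 were up-regulated in WT skin at 30 min and in KO skin at 30 min. Clec1b, a receptor of platelets, was down-regulated by both of its probes, at 0.450-fold and 0.438-fold, and Mup20, a major urinary protein made in liver, at 0.336-fold. These were named after their values were seen.

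Genes tied to the peptide and to sweating showed no call. Adcyap1r1 gave 1.10-fold and 0.887-fold on the arrays, a mean of 0.987-fold, and the ligand gene Adcyap1 0.882-fold. The receptors Vipr1 and Vipr2 gave 0.968-fold and 1.12-fold, and Vip, dim in these samples, 0.250-fold on array 1 and 1.03-fold on array 2. Aqp5 gave 0.868-fold and 0.833-fold by its probes, the calcium-activated potassium channel Kcnn2 1.26-fold, the cyclooxygenase Ptgs2 1.27-fold, the calcium channel Cacna1s 0.953-fold, and the acetylcholine receptor Chrna1 1.11-fold and 1.28-fold by its probes. None of 29 genes of the eccrine gland and sweat secretion was called, with a median of 0.01, and none of 32 immediate early and cAMP response genes, with a median of -0.10. Of 16 neutrophil chemokines and acute cytokines none was called (median -0.11), and of 11 CC chemokines only Ccl17, at 2.55-fold, was up-regulated. Probes of Gapdh ranged from 1.02-fold to 1.10-fold.

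A short stretch of probe sequence was shared by up-regulated probes outside the hair, flank, interferon, wound, liver and blood groups. Of 63 such probes, 10 held the 8 bases GGCTGTGG (15.9%), the word most frequent among them. Of all 39173 probes outside the hair lists, the Krtap loci and their flanks, 61 held it (0.156%). KAP probes hold the word too, and all 13 probes of the hair lists, loci and flanks that held it were up-regulated. The word was picked after the values were seen, so its counts are a description. The windows of 30 bases below, from the array's probes on mm9, show it in capitals, first in a pair of KAP probes and then in probes of genes on other chromosomes.
Krtap20-2: ggctatggctatGGCTGTGGctatggctgt
Krtap21-1: ctgtggaGGCTGTGGatacggctcaagata
Olfr1134: tcccatcttatGGCTGTGGctatttttcat
Mecom: atccttgggaaGGCTGTGGcttagtaaaat
Rpl6: ccttttactgtGGCTGTGGttttgcccttt
Cep63: tagaaataggtGGCTGTGGtgatggtttct
Klre1: tcgcagacagtGGCTGTGGgaagaccattc
Icmt: ttgtgtttGGCTGTGGtgtgctgctaagtt

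The probes lie at chr16:89206195-89206254 on the plus strand for Krtap20-2, chr16:89403912-89403971 on the minus strand for Krtap21-1, chr2:87496298-87496357 on the minus strand for Olfr1134, chr3:30135491-30135550 on the minus strand for Mecom, chr5:121659155-121659214 on the plus strand for Rpl6, chr9:102488299-102488358 on the minus strand for Cep63, chr6:129534195-129534254 on the plus strand for Klre1 and chr4:151672822-151672881 on the plus strand for Icmt. These KAP probes gave 7.45-fold and 5.44-fold. Olfr1134, an olfactory receptor, gave 4.18-fold, and Mecom, a transcription factor, 3.68-fold. The ribosomal protein Rpl6 gave 3.26-fold, Cep63, a centrosome protein, 3.23-fold, the NK cell receptor Klre1 3.10-fold, and Icmt, a methyltransferase of prenylated proteins, 2.82-fold.

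Other probes of the same genes had ratios near 1 or below. For 6 of the 10 genes the array held 12 further probes without the word, which ranged from 0.541-fold to 1.17-fold, and none of them was called. Of the 10 probes, 9 were up-regulated in KO skin at 30 min and all 10 had ratios below 1 in KO skin at 60 min. In WT skin at 30 min their median log2 ratio was 0.47, whereas that of the 13 probes of hair lists, loci and flanks with the word was -1.32. Among probes outside hair that were well above background everywhere, 9 of 42 with the word had a mean ratio of 2.0-fold or more (21.4%), against 55 of 21435 without it (0.257%). The reverse complement CCACAGCC was held by 54 probes outside hair, of which 0 were up-regulated, with a median log2 ratio of -0.02. Of all 39173 probes outside hair 87 were up-regulated. A count of 0 among 54 is near that share and does not set these probes apart. Whether KAP transcripts bound to these probes was not tested. The single up-regulated gene among 80 cytosolic ribosomal proteins, Rpl6, was called by such a probe.

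**Figure D5:**
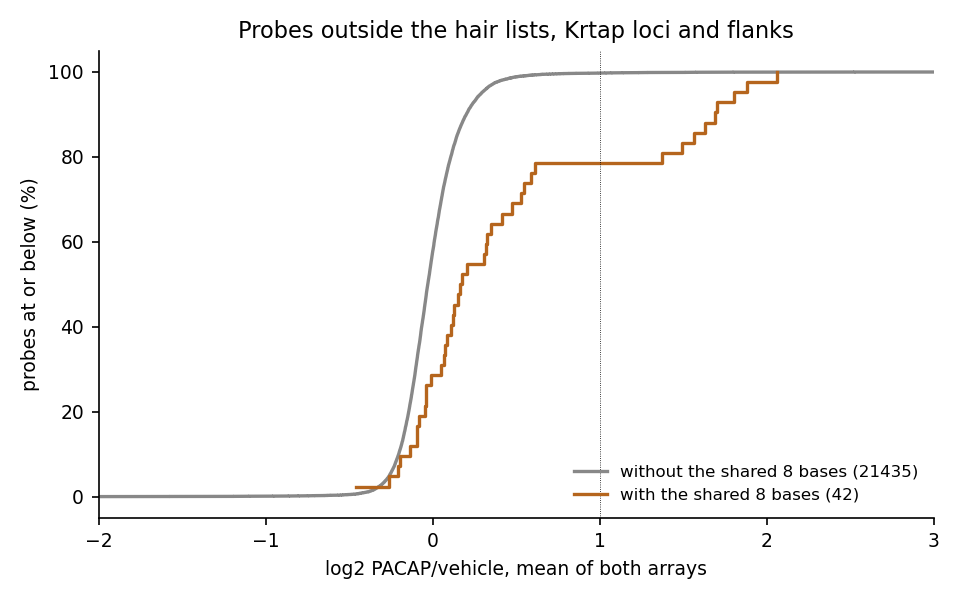
The curves give the cumulative percentage of probes at or below a log2 ratio of PACAP over vehicle, for probes outside the hair lists, Krtap loci and flanks that were well above background in both samples on both arrays. The 42 probes with the shared 8 bases run to the right of the 21435 without, and the dotted line marks 2.0-fold.

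The comparison was set against the others of the series. Of the 230 up-regulated probes, 141 were also up-regulated in KO skin at 30 min (61.3% of 230 and 59.5% of its 237), 19 in WT skin at 30 min (8.26% of 230 and 19% of its 100) and 13 in KO skin at 60 min (5.65% of 230 and 23.2% of its 56). In none of the other 3 were 81 of the up-regulated probes (35.2%) called the same way, against 99.1% of all 39427 probes. For the down-regulated probes it was 42 of 43 (97.7%), near the 99.7% of all probes. The exception among the down-regulated was Htra4, a serine protease, at 0.437-fold here and 0.448-fold in KO skin at 30 min.

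The mean ratio of WT skin at 60 min was tested against those of the other 3 comparisons with limma over 30351 probes. It called 0 probes, or 0%, at a Benjamini-Hochberg adjusted p below 0.05, and 452 had an unadjusted p below 0.05, where 1518 would be expected by chance. Cxcl9 had the smallest adjusted p, 0.0699, with a log2 difference of 4.44 and a standard error of 0.29. It was followed by the chr16 hair gene 2310034C09Rik with a difference of 5.81 (standard error 0.62), then Fabp1 with -4.32 (0.47), Slc27a5 with -2.56 (0.30) and Ttr with -3.10 (0.38), at limma adjusted p of 0.6 to 0.685. In this test the lone value is assumed to vary like the other 3, which differ in genotype and time. Fits without 1 of the other comparisons, or with the time point as a covariate, left a single residual degree of freedom. These fits called some probes, but with so little residual error to estimate their counts cannot be set beside that of the main fit.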

How the data were processed

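Palm skin RNA of WT mice at 60 min after PACAP or vehicle was measured on 2 dye-swapped Agilent arrays, of 8 in the series. Scans had been read by the authors with Agilent Feature Extraction (12.0.3.1 by the file headers, 11.0.1.1 by the labels). The deposited intensity values are processed red and green signals, background-corrected and LOWESS-normalized, with mean signals and local backgrounds. The deposited log10 ratio, which the authors' software had set to 0 at 16.3% to 20.2% of these spots, was used only as an alternative, as was the authors' series matrix of log10 processed red over green. The p-value deposited for a spot comes from Feature Extraction's error model and covers 1 array.

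Control spots and between 220 and 314 outlier spots per array were left out, and 0 spots were saturated. The log2 ratio of processed signals was expressed as PACAP over vehicle, then averaged by probe and over the arrays. Probes were counted by the rule given above, with the median p of a probe's spots. Levels are log2 intensities after normexp correction (offset 50), loess and Aquantile with limma 3.58.1 in R 4.3.3, so their differences are smaller than the log2 ratios for dim genes. Figures and counts used Python 3.11.15, numpy 2.4.6, pandas 2.3.3 and matplotlib 3.10.9. A bound sets the mean of the bright sample against the lowest signal well above background. Limma (lmFit, eBayes) compared the 4 comparison means. The counting rule and the limma step were tested on simulated data, and the other steps were not.

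The members and gene lists were chosen with earlier results of these data known. Named genes are the 15 largest changes per direction, the bounds, a fixed set around the peptide and sweating, the 5 smallest limma p, the threshold neighbours, and list members at the ends or known by role. Single genes are given by their brightest probe, except where another is named, and counts of genes take any probe. Alternatives are in the closing section.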

Additional observations from a re-analysis of the deposited data

Results flagged for a closer look

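Some probes called in WT skin at 60 min were called the other way elsewhere, and these differences were not tested. Of the 230 up-regulated probes, 33 were down-regulated in WT skin at 30 min (14.3%) and 47 in KO skin at 60 min (20.4%), and 31 of the 33 and 43 of the 47 belonged to hair genes and Krtap loci. The others at WT 30 min were Olfr1134 and Spink6, and those at KO 60 min were Olfr1134, Serpina3g, Ccl17 and AA467197. Another 2 up-regulated probes were down-regulated in KO skin at 30 min, those of Krt36 (0.425-fold there) and 2310034C09Rik (0.116-fold there). Of the 43 down-regulated probes, 3 were up-regulated in WT skin at 30 min, all of them the chr9 transcripts, and 5 in KO skin at 30 min, namely the same 3, Ppbp (2.09-fold there) and Fgg (7.11-fold there).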

How the results depend on the processing

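The count of 230 up-regulated probes stayed between 155 and 272 under the other p filters, a threshold on each array, 3.0-fold, normexp, median centring, measurement in both channels, outlier spots kept, the Feature Extraction log ratio, the series matrix ratios and distinct gene names, and ran from 374 to 559 on 1 array alone. The 43 down-regulated probes became 341 with no p filter, 24 at 3.0-fold, 10 with normexp, 21 where both channels had to be well above background on both arrays, and 120 to 463 on 1 array alone. With normexp all 230 and all 43 kept their direction, while 160 and 10 passed the fold. The limma test called 0 probes with normexp, over all probes and over probes measured everywhere, 147 with the time point as a covariate, and 18 to 166 without 1 of the other comparisons. For called genes of a list, an alternative chosen after seeing the data, normexp gave 4 of the 11 interferon gamma response genes, 5 of 13 liver plasma proteins, 0 of 3 coagulation factors, 1 of 8 liver enzymes and 1 of 2 blood genes. Normexp moved 12 of 14 list medians by more than the spread between both arrays. Signal over background limits the dim genes, since 33 up-regulated and 21 down-regulated probes were well above background on only 1 array in a sample. No paired analysis was possible because every ratio is already taken within an array, from 1 pair of RNA samples, and the replicate numbers mark only the dye orientation.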
